A study of Mus musculus with 4 samples.

Results

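The libraries compared here were made from wild type C57BL/6 mouse mammary cells that were sorted, embedded in Matrigel and grown with DMSO, the solvent control. GEO's labels name the cells of 1 library basal and the cells of the other luminal. They are 2 of the 4 libraries of the series, and the remaining pair carries the same cell labels and was grown with 100 μM baicalin, a plant flavonoid. All 4 libraries share the strain, the genotype and the Matrigel culture, and each condition has 1 library. The study's methods give a medium of DMEM/F12 with insulin, transferrin and selenium supplement and EGF, a sort on CD29 and CD24 after removal of CD31+, CD45+ and TER119+ cells, and donor females that were virgins of 6 to 9 weeks or at other stages. The stage of the donors of these libraries, the passage of the colonies and whether cells of several mice were pooled are not given in the sources used here.

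Genes were included where the deposited FPKM (fragments of a gene per kilobase of its exons, divided by the library's depth) was above 0 in both DMSO libraries. This held for 19181 of 54446 genes, of which 14419 are protein-coding. Differences are given as log2((FPKM labelled luminal + 1)/(FPKM labelled basal + 1)), called the log2 difference, so a positive value is higher in the library labelled luminal. This scale understates the difference of genes with low FPKM. With no replicates there is no test between the libraries, and intervals on FPKM ratios are exact 95% intervals from recovered fragments that cover counting error only. In bulk RNA, fewer cells of a type and less RNA per cell cannot be told apart.

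The mammary epithelium is a bilayer. Basal, or myoepithelial, cells lie against the basement membrane, contract in response to oxytocin, and carry the keratins Krt5 and Krt14 and the transcription factor p63. Luminal cells line the lumen, are sealed by tight junctions, carry the keratins Krt8 and Krt18, and make milk or sense ovarian hormones.

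The markers went against the labels. Krt5, a basal keratin (ENSMUSG00000061527, chromosome 15, 101707070 to 101712898 on GRCm38), was at 128 FPKM in the library labelled basal and at 2015 FPKM in the library labelled luminal. Acta2, smooth muscle actin, was at 7.66 and 555 FPKM, and Trp63, which encodes p63, was at 6.01 and 25.2 FPKM. All 3 basal markers were thus higher in the library labelled luminal, by log2 differences of 3.97, 6.00 and 1.90. The luminal keratin Krt8 was at 1573 FPKM under the basal label and 383 FPKM under the luminal label, and its partner Krt18 was at 1408 and 298 FPKM. These were lower in the library labelled luminal, with log2 differences of -2.04 and -2.24. The baicalin pair, which shares no library with the DMSO pair, had the same directions, with Krt5 at 3.01 FPKM under the basal label and 2415 FPKM under the luminal label. Itgb1, which encodes the sort antigen CD29 and is by the sort the higher in basal cells, went the other way from Krt5, with 348 FPKM under the basal label and 207 FPKM under the luminal label. Cd24a was at 251 and 152 FPKM. Krt14 was high in both libraries, at 1494 FPKM under the basal label and 2308 FPKM under the luminal label. Krt14, Itgb1 and Cd24a were added to the named genes after their values were seen. Basal and luminal are therefore used below only as the labels of libraries.

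**Figure D1:**
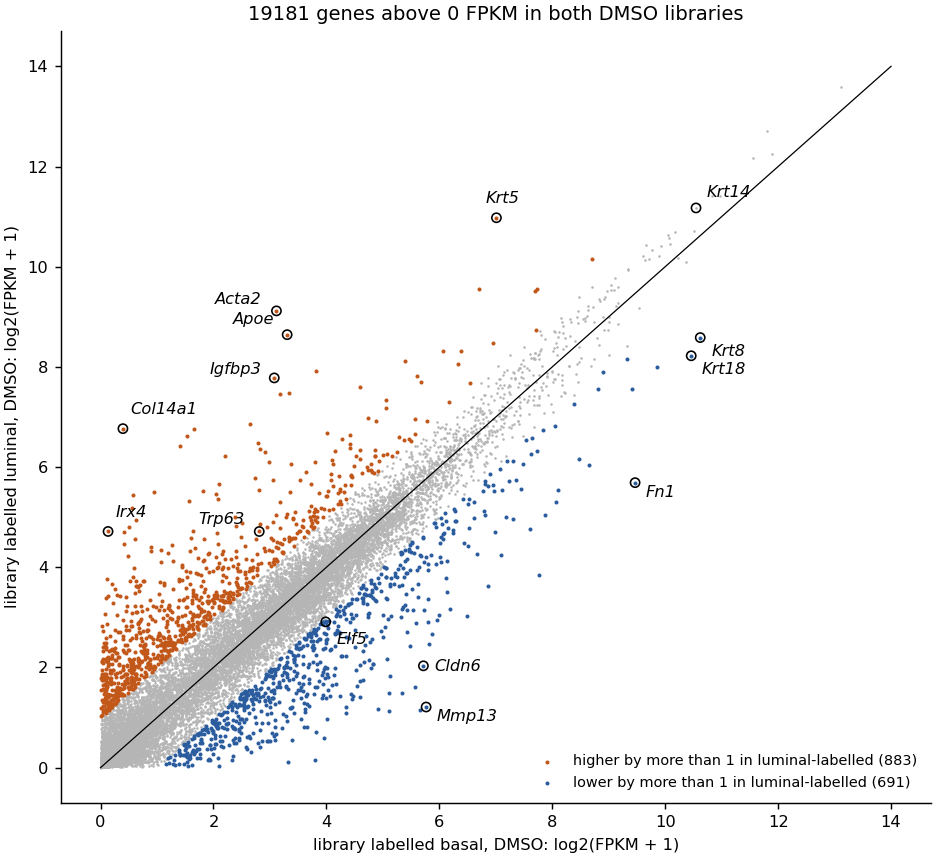
Each point is 1 of the 19181 genes, with log2(FPKM + 1) in the DMSO library labelled basal on the x axis and in the DMSO library labelled luminal on the y axis. Orange and blue points are the 883 and 691 genes that differed by more than 1 in either direction. Krt5, Acta2, Trp63, Col14a1 and Irx4 lie above the diagonal, and Krt8, Krt18, Fn1, Cldn6 and Mmp13 lie below it.

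Over all genes the median log2 difference was 0.0084 and the central 95% lay between -1.21 and 1.37. At any size, 10322 of the 19181 genes were higher in the library labelled luminal and 8859 lower. In the library labelled luminal, 883 genes were higher by more than 1, which is 4.60% of the genes compared, and 691 were lower by more than 1, which is 3.60%. The counting interval of the FPKM ratio excluded 1 for 860 and 684 of these genes. The genes were selected on the same values, so this is not a separate check, and variation between cultures was not measured. The libraries held 19853582 fragments under the basal label and 19356088 under the luminal label. Genes of the mitochondrial genome held 7.68% and 10.58% of the summed FPKM.

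Lineage transcription factors were compared first. The list of factors tied to basal mammary or epidermal identity stood higher in the library labelled luminal. Of its 17 compared members, 10 were higher and 1 lower by more than 1, 58.8% and 5.88% against 4.60% and 3.60% of all genes. The median log2 difference of the list was 1.25, and the eighteenth member, Myocd, was listed at 0 in both DMSO libraries.

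Irx4, an Iroquois homeobox factor (ENSMUSG00000021604, chromosome 13, 73260479 to 73269608 on GRCm38), was at 0.0966 FPKM in the library labelled basal and 25.3 FPKM in the library labelled luminal. Only 5 fragments lay behind the lower value, and the FPKM ratio was 262 with a counting interval of 112 to 807. Id4, an inhibitor of basic helix-loop-helix factors, was at 3.23 and 40.4 FPKM. Both were more than 10-fold higher in the library labelled luminal, and with baicalin Irx4 was at 0.0189 and 11.2 FPKM and Id4 at 9.45 and 37.8 FPKM in the same order of labels. Bcl11b, a zinc finger factor of basal cells and keratinocytes, was at 0.466 and 6.08 FPKM. Snai2, the zinc finger repressor Slug, was at 4.26 FPKM under the basal label and 18.97 FPKM under the luminal label, a ratio of 4.45 (95% counting interval 3.76 to 5.29). Its ratio was close to that of Trp63, 4.20 (3.92 to 4.50). Trp73, the p53 family member p73, had log2 difference 1.25, and Mef2c, Egr2 and Tbx2 had 1.82, 1.49 and 1.46 from levels under 1 FPKM in the library labelled basal. Nfix, a nuclear factor I protein, was already at 32.6 FPKM under the basal label and was at 75.6 FPKM under the luminal label.

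Not every basal factor followed. Srf, which drives contractile genes with myocardin, differed by 0.41, and Nfib, Tcf7l1 and Vgll3 by 0.13, 0.23 and 0.16. Sox10, a factor of neural crest and mammary progenitor cells, was lower in the library labelled luminal, at 23.6 FPKM under the basal label and 12.6 FPKM under the luminal label. Hmga2, a chromatin protein of progenitor and fetal cells (ENSMUSG00000056758, chromosome 10, 120361275 to 120476469 on GRCm38), was the member that stood furthest in that direction, at 20.8 and 1.60 FPKM, a log2 difference of -3.06. With baicalin Hmga2 was at 16.1 and 3.60 FPKM in the same order of labels.

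Factors tied to luminal identity did not mirror the basal list. Of 31 compared, 20 were higher and 11 lower in the library labelled luminal, against 10322 and 8859 over all genes. The median log2 difference was 0.29. Past the threshold, 5 were higher and 1 lower, 16.1% and 3.23% against 4.60% and 3.60% of all genes. Foxa1, a forkhead pioneer factor for oestrogen receptor, was at 1.80 FPKM under the basal label and 9.30 FPKM under the luminal label. Pgr, the progesterone receptor, was at 1.08 and 4.81 FPKM, and Gata3, a zinc finger factor needed for luminal differentiation, was at 18.04 and 37.2 FPKM. Tfap2c, an AP-2 factor, was at 13.5 and 43.7 FPKM, and Ovol2, a zinc finger repressor, was at 1.95 and 6.09 FPKM. Esr1, the oestrogen receptor, was near 1 FPKM in both, at 0.992 and 1.44.

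The member lower by more than 1 was an ETS factor. Elf5, which directs alveolar fate, was at 14.9 FPKM under the basal label and 6.51 FPKM under the luminal label, a log2 difference of -1.08. Ehf and Elf3, ETS factors of simple epithelia, were at 48.5 and 24.5 FPKM and at 7.25 and 3.54 FPKM. Their log2 differences were -0.96 and -0.86, short of the threshold, and Spdef, an ETS factor of secretory epithelium, was on the other side at 0.175 and 0.874 FPKM. Stat5a and Stat5b, the transducers of prolactin signals, differed by 0.35 and -0.17, and fragments from a 440-base stretch that they share at 95% identity or more cannot be assigned with certainty. Sox9, Klf5, Grhl2, Ovol1 and Cebpb differed by less than 0.2 in size. The signs of Grhl2 and Bcl11a, at 0.070 and 0.056, turned when FPKM were scaled to a common sum.

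**Figure D2:**
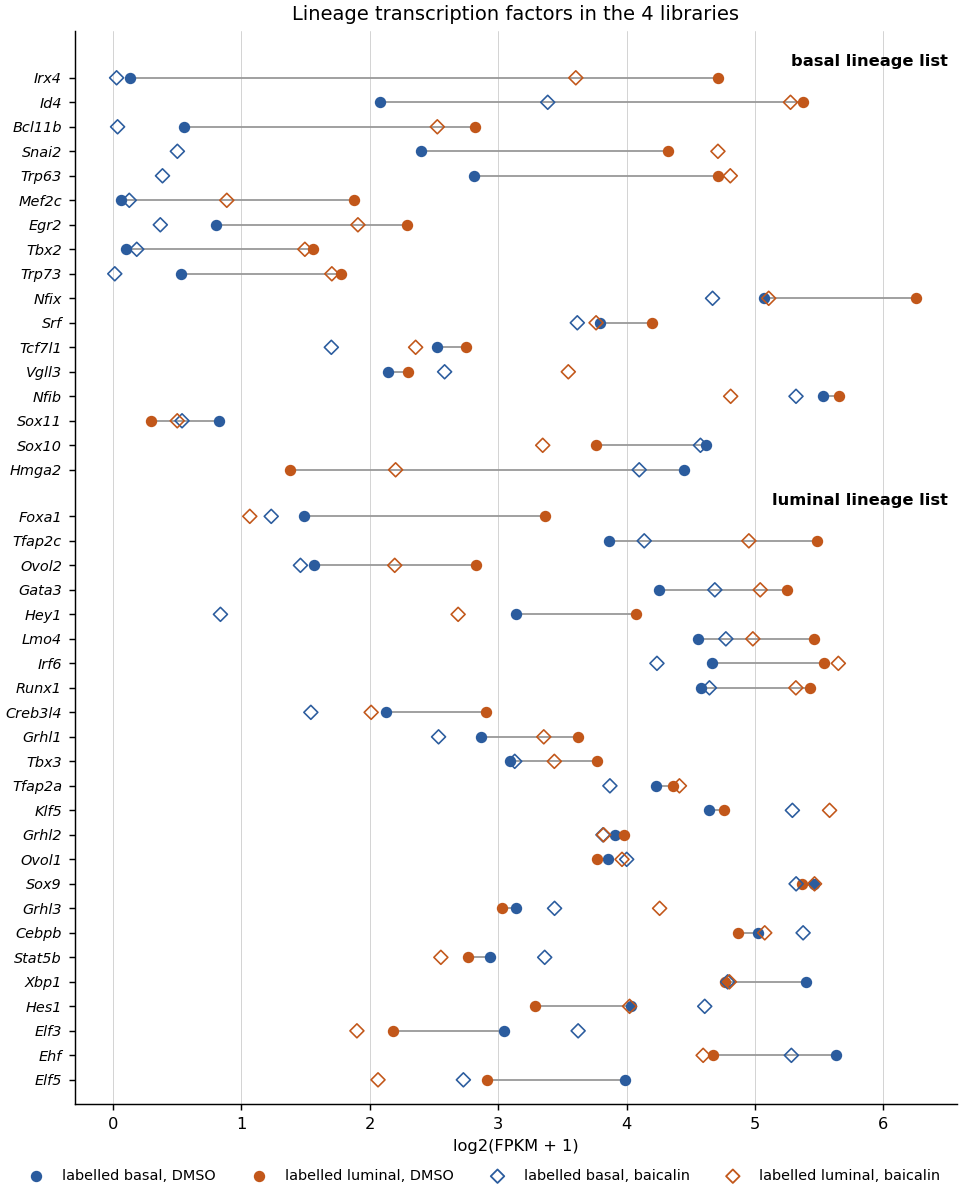
Levels of lineage transcription factors on the log2(FPKM + 1) axis, with 1 row per gene. Filled circles are the DMSO libraries joined by a line, open diamonds are the baicalin libraries, blue is the basal label and orange the luminal label. Most basal-list factors have the orange circle to the right and Hmga2 has it to the left, while luminal-list factors run from Foxa1, higher under the luminal label, to Elf5, lower under it.

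Among 36 compared homeobox and patterning factors, 1 was higher and 1 lower by more than 1. The share was 2.78% in each direction, against 4.60% higher and 3.60% lower over all genes. No other Iroquois gene had a difference of the size of that of Irx4. Irx5, Irx2, Irx1 and Irx3 differed by 1.003, 0.94, 0.66 and 0.39, and Irx2 was the most abundant of them at 61.4 FPKM under the basal label and 118 FPKM under the luminal label. Irx5 was the member past the threshold on the higher side and Six4 on the lower side. Of 11 factors of the epithelial to mesenchymal transition, Snai2 alone was higher by more than 1. That share is 9.09%, against 4.60% of all genes, and no member was lower by more than 1.

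Keratins and contractile genes came next. Of 13 compared keratins of stratified and basal epithelium, 12 were higher in the library labelled luminal, 4 of them by more than 1. The remaining member was lower by more than 1. These shares are 30.8% and 7.69%, against 4.60% and 3.60% of all genes. Krt15, a keratin of epidermal basal and progenitor cells (ENSMUSG00000054146, chromosome 11, 100131758 to 100135928 on GRCm38), was at 0.485 and 42.6 FPKM in the libraries labelled basal and luminal. Krt17, a stress and appendage keratin, was at 122 and 358 FPKM. Krt6b was at 2.75 and 9.82 FPKM and is nearly identical to Krt6a over 1193 bases, so its own share is uncertain. Krt80, a keratin of differentiating epithelium, was the exception, at 8.45 FPKM under the basal label and 2.998 FPKM under the luminal label.

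The simple epithelial keratins were not 1 block. Krt7, a keratin of ductal epithelium, had a wider gap than Krt8 and Krt18, at 115 FPKM under the basal label and 11.4 FPKM under the luminal label, a log2 difference of -3.22. Krt19 was nearly equal at 116 and 105 FPKM, and Krt23 was higher under the luminal label at 1.13 and 9.05 FPKM.

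Of 25 contractile genes, 9 were higher by more than 1 in the library labelled luminal and 2 lower by more than 1. That is 36% and 8% of the list, against 4.60% and 3.60% of all genes. The 9 were Acta2, Tagln, Myl9, Cnn1, Myh11, Oxtr, Actg2, Mylk and Lmod1, which include the smooth muscle isoforms of actin and myosin and the oxytocin receptor. Tagln, the actin-binding protein transgelin, was at 1.90 and 97.6 FPKM, and 62.4% of its exon bases lie opposite the antisense gene Gm48529, which was at 2.13 and 2.49 FPKM. Myl9, a regulatory light chain of smooth muscle myosin, was at 1.65 and 84.7 FPKM, and Cnn1, calponin, at 0.147 and 11.7 FPKM. In all 3 the library labelled luminal was the higher, by ratios between 51.4 and 79.4. Over the whole list 19 were higher and 6 lower. The members lower by more than 1 were the tropomyosin Tpm1, at 264 FPKM under the basal label and 112 FPKM under the luminal label, and the LIM protein Pdlim7, at 22.9 and 10.3 FPKM.

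The promoter of Myl9 is shown because it had the largest log2 difference among the contractile genes whose RefSeq window holds a CArG box, the letters that serum response factor binds. The window runs from 250 bases before the start site to 50 bases after it, and capitals mark the match, which starts 161 bases upstream of the start site.

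Myl9, chr2:156775214-156775513, plus strand of GRCm38.p6: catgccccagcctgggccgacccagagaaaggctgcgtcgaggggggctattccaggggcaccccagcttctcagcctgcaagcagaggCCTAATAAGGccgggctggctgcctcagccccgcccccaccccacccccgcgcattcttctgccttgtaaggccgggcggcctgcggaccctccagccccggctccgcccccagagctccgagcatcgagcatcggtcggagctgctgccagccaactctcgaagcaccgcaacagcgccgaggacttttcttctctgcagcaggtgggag

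CArG boxes were found in the windows of 3 of 22 contractile genes, Myl9, Cnn2 and Myl6, and in 1.81% of the 27025 genes with a window, with both strands searched. Of these 3, Cnn2 differed by -0.36. The letters GGAATG, which TEAD factors bind, were in 7 of the 22 windows and in 16.6% of all, and p63 sites were in none of the 22 and in 0.0111% of all. Matches are descriptions of letters in this window and not of binding.

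Pericyte and fibroblast markers that share contractile genes were low, with values given here because such cells carry Acta2 and Tagln. Rgs5, Cspg4, Kcnj8 and Abcc9 were between 0.0222 and 0.247 FPKM in both DMSO libraries. Rgs5, Cspg4 and Abcc9 were higher under the luminal label. Their FPKM ratios were 9.73 (2.35 to 86.3), 4.50 (2.43 to 8.96) and 2.39 (1.27 to 4.72). Kcnj8 was lower, at 0.293 (0.0297 to 1.54). Of the 6 pericyte markers 5 were higher and 1 lower, and of the 10 fibroblast markers 2 were higher and 8 lower. Col1a1, Col1a2, Col3a1 and Dcn were between 0.620 and 2.47 FPKM. The summed FPKM of the 10 fibroblast markers was 7.67 under the basal label and 11.4 under the luminal label, and Pdgfra was the fibroblast marker that differed by more than 1, at 0.593 and 6.30 FPKM. Mcam and Notch3, also carried by myoepithelial cells, made up most of the 6 pericyte markers' sum of 27.1 and 87.8 FPKM. Their part in the contractile difference was not tested.

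Adhesion genes separated the libraries by junction type. Of 31 compared tight junction genes, 25 were lower in the library labelled luminal, 10 by more than 1, which is 32.3% against 3.60% of all genes. The median log2 difference was -0.72. Cldn6, a claudin of embryonic and undifferentiated epithelium (ENSMUSG00000023906, chromosome 17, 23679249 to 23682446 on GRCm38), was at 51.6 FPKM under the basal label and 3.09 FPKM under the luminal label. Cldn4, a claudin of luminal epithelium, was at 273 and 45.9 FPKM, a ratio of 5.95 (5.64 to 6.27) in favour of the library labelled basal. Cldn1 was at 48.2 and 9.63 FPKM, and Cgn, the junction plaque protein cingulin, at 42.2 and 7.88 FPKM. Each of these 4 was more than 5-fold lower under the luminal label, and with baicalin all 4 remained the lower under that label, by log2 differences between -2.51 and -0.56. Cldn3, Cldn7, Ocln, Cgnl1, Cldn23 and Marveld2 completed the 10. The polarity genes Prkci and Pard3 were slightly higher at log2 differences of 0.45 and 0.17. Cldn8 and Cldn10 were the members higher by more than 1, which is 6.45% against 4.60% of all genes.

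Desmosome genes leaned the opposite way, with 5 of 14 higher by more than 1 and 1 lower. The shares were 35.7% and 7.14%, against 4.60% and 3.60% of all genes. Dsc3 and Dsg3, the desmosomal cadherins of basal and stratified layers, were at 1.98 and 39.1 FPKM and at 23.1 and 70.8 FPKM in the libraries labelled basal and luminal. Perp, a p63 target in desmosomes, was at 209 and 423 FPKM, and Dsg1a and Dsg1b were the others past the threshold on that side. The isoforms of simple epithelium, Dsg2 and Dsc2, were slightly lower under the luminal label at log2 differences of -0.29 and -0.47, and Pkp2, the plakophilin of simple epithelium and heart, was at 10.98 FPKM under the basal label and 3.19 FPKM under the luminal label.

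Cadherins were split, with 16 of 32 in each direction and 7 higher but 1 lower by more than 1. Those past the threshold were 21.9% and 3.12%, against 4.60% and 3.60% of all genes. Cdh3, the P-cadherin of myoepithelium (ENSMUSG00000061048, chromosome 8, 106510891 to 106557297 on GRCm38), was at 11.5 and 58.4 FPKM, Cdh2, N-cadherin, at 0.643 and 6.85 FPKM, and Fat2, an atypical cadherin, at 3.26 and 16.02 FPKM. All 3 were higher under the luminal label in both pairs of libraries, with baicalin log2 differences of 3.22, 2.88 and 3.84. Epcam, the epithelial adhesion molecule that is higher in luminal cells, was at 637 FPKM under the basal label and 342 FPKM under the luminal label. Cdh13, a cadherin with a lipid anchor, was the member lower by more than 1, at 5.39 and 1.53 FPKM. The sign of this list's median, -0.03, turned without the pseudocount.

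Integrins and hemidesmosomes did not move as a group, with 17 of 35 higher and 18 lower, and 3 by more than 1 in each direction. That is 8.57% each way, against 4.60% of all genes higher and 3.60% lower by more than 1. Col17a1, the transmembrane collagen of hemidesmosomes (ENSMUSG00000025064, chromosome 19, 47646344 to 47692094 on GRCm38), was at 23.2 FPKM under the basal label and 193 FPKM under the luminal label. Bcam, a laminin receptor, was at 28.5 and 121 FPKM, and Itga11 was the other member higher by more than 1. Itga3, the laminin-binding α3 integrin, was lower under the luminal label at 111 and 31.8 FPKM, and so were Itgb6 at 6.81 and 1.67 FPKM and the hyaluronan receptor Cd44 at 199 and 94.1 FPKM. Itga6, the α6 integrin that pairs with β4 in hemidesmosomes, differed by 0.69.

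Of 42 other surface molecules, 9 were higher and 6 lower by more than 1 in the library labelled luminal. That is 21.4% and 14.3%, against 4.60% and 3.60% of all genes. Lgr5, the R-spondin receptor that marks some epithelial stem cells, was at 0.398 and 17.7 FPKM, and Ly6d, a GPI-anchored surface protein, at 103 and 749 FPKM. Boc, a Hedgehog co-receptor, was at 7.28 and 52.3 FPKM and Mcam, the adhesion molecule CD146, at 12.9 and 67.9 FPKM. All 4 were higher under the luminal label. Prom1, which marks hormone-sensing luminal cells, was lower there at 12.7 and 1.79 FPKM, as was Nt5e, the ectonucleotidase CD73, at 54.8 and 14.5 FPKM. Prom1 thus went the opposite way from Foxa1 and Pgr. Ly6a, the Sca1 antigen, was at 50.6 and 27.95 FPKM, Procr, the protein C receptor, at 4.14 and 2.19 FPKM, and Kit, the stem cell factor receptor, at 6.83 and 6.59 FPKM. These last 3 were named after their values were seen and differed by less than 1.

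**Figure D3:**
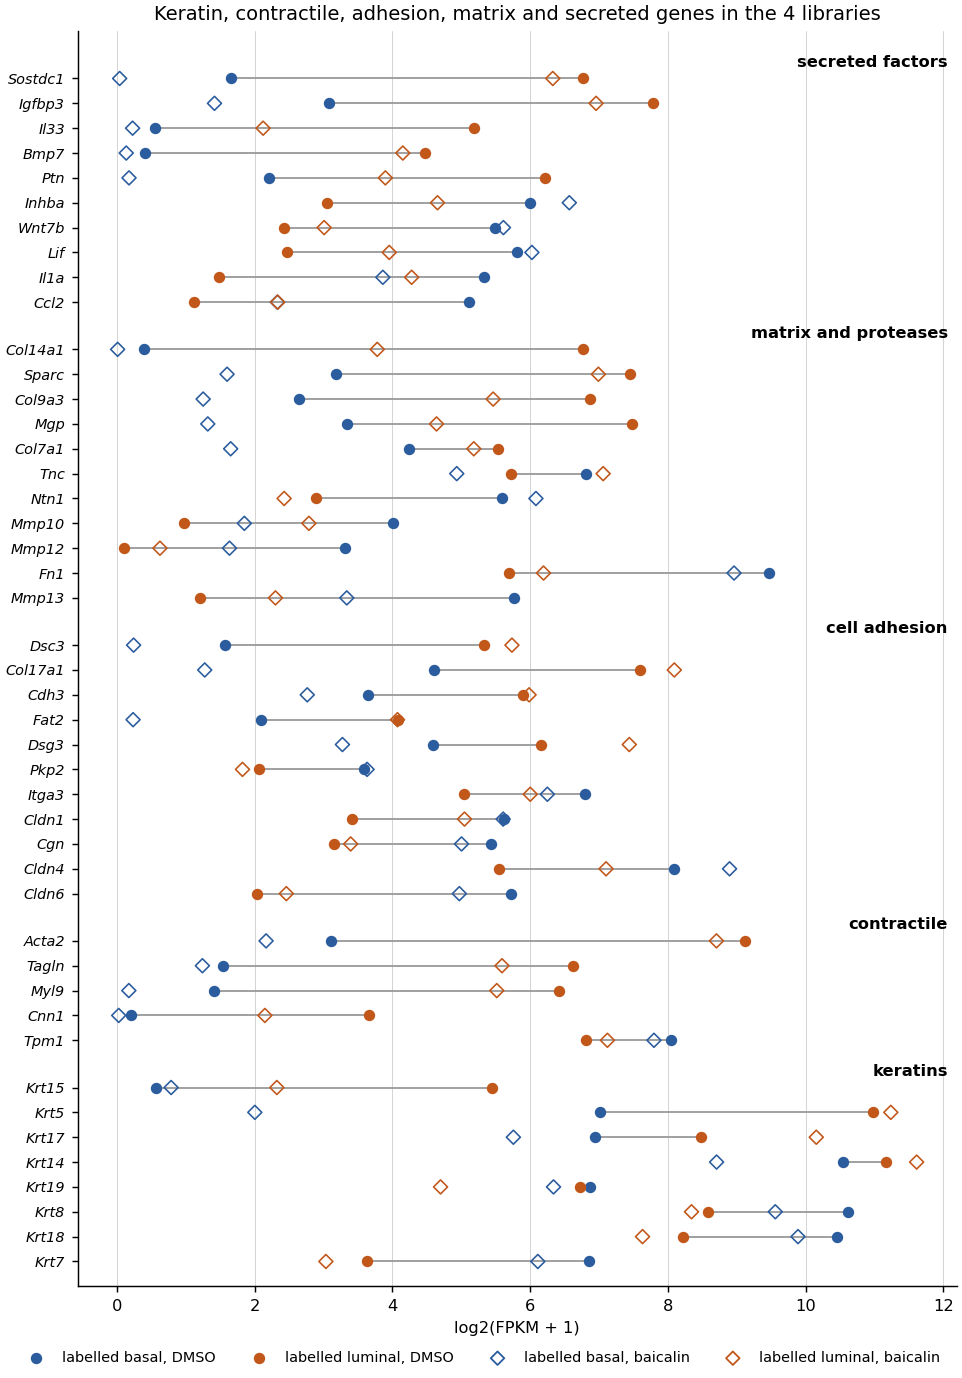
Levels of keratin, contractile, adhesion, matrix and secreted genes on the log2(FPKM + 1) axis, with 1 row per gene. Symbols are as in the plot of transcription factors: filled circles for DMSO, open diamonds for baicalin, blue for the basal label and orange for the luminal label. Col14a1 and Acta2 have the widest gaps with orange to the right, and Mmp13, Ccl2, Fn1 and Cldn6 have wide gaps with blue to the right.

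Matrix genes differed in both directions and held the largest difference of all. Of 70 compared collagens and interstitial matrix genes, 19 were higher by more than 1 in the library labelled luminal and 10 lower. These are 27.1% and 14.3% of the list, against 4.60% and 3.60% of all genes. Col14a1, a collagen that associates with fibrils (ENSMUSG00000022371, chromosome 15, 55307750 to 55520803 on GRCm38), was at 0.316 FPKM under the basal label and 108 FPKM under the luminal label, a log2 difference of 6.37 and an FPKM ratio of 342 (95% counting interval 254 to 470.3). Col9a3, a chain of collagen IX, was at 5.26 and 115 FPKM, and Mgp, the matrix Gla protein that holds back calcification, at 9.12 and 178 FPKM. Prelp, a leucine-rich proteoglycan, was at 2.52 and 44.7 FPKM. These 4 were higher under the luminal label with baicalin too, with Col14a1 at 0.00700 and 12.7 FPKM in the libraries labelled basal and luminal.

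Fn1, fibronectin (ENSMUSG00000026193, chromosome 1, 71585520 to 71653200 on GRCm38), had the largest difference of this list in the other direction and was among the most abundant matrix genes, at 707 FPKM under the basal label and 50.6 FPKM under the luminal label. Its FPKM ratio was 13.96 (13.7 to 14.2) in favour of the library labelled basal, and with baicalin it was at 498 and 72.3 FPKM. Ltbp2, a latent TGF-β binding protein, was at 68.6 and 12.8 FPKM, the collagen crosslinker Loxl4 at 15.3 and 1.94 FPKM and the CCN protein Wisp2 at 14.3 and 1.72 FPKM. The next 4 genes were chosen after their values were seen. Osteopontin, Spp1, was at 683 and 187 FPKM, thrombospondin, Thbs1, at 638 and 284 FPKM, Ctgf at 68.2 and 29.3 FPKM and tenascin C, Tnc, at 111 and 51.98 FPKM. The library labelled basal was the higher for each of these 4. Ctgf and Spp1 overlap another gene over 23.2% and 18.8% of their exon bases, on the opposite strand and the same strand, with at most 0.362 FPKM in a DMSO library.

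Basement membrane genes were as divided, with 8 of 35 higher and 5 lower by more than 1. The shares were 22.9% and 14.3%, against 4.60% and 3.60% of all genes. Sparc, a collagen-binding glycoprotein, was at 8.10 and 174 FPKM and Frem2, of the Fraser complex, at 0.190 and 10.8 FPKM. The collagen IV chains differed, with Col4a6, a chain found under epidermal and myoepithelial layers, at 17.9 and 46.4 FPKM, Col4a5 at 31.5 and 54.4 FPKM and the ubiquitous chains Col4a1 and Col4a2 at 39.04 and 18.2 FPKM and at 41.9 and 16.98 FPKM. Col4a6 was the higher under the luminal label and Col4a1 and Col4a2 under the basal label, Col4a5 differed by 0.77, and Col4a3 and Col4a4 were below 0.1 FPKM in both. With baicalin the Col4a6 gap was small, at 18.7 and 20.7 FPKM. Col7a1, the anchoring fibril collagen, was at 17.9 and 45.2 FPKM. Ntn1, the guidance cue netrin, was at 47.3 FPKM under the basal label and 6.44 FPKM under the luminal label, and Smoc1, a modular calcium-binding protein, at 17.1 and 2.20 FPKM, with the laminin chain Lama5 the remaining member lower by more than 1.

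Of 47 compared matrix proteases and inhibitors, 29 were lower and 18 higher under the luminal label, with a median log2 difference of -0.38. By more than 1, 12 were lower and 3 higher, 25.5% and 6.38% against 3.60% and 4.60% of all genes. Mmp13, a collagenase (ENSMUSG00000050578, chromosome 9, 7272514 to 7283331 on GRCm38), was at 53.4 FPKM under the basal label and 1.31 FPKM under the luminal label, the lowest log2 difference of the named genes at -4.56. Mmp12, macrophage elastase, was at 8.94 and 0.0785 FPKM and Mmp10, a stromelysin, at 15.1 and 0.960 FPKM. Mmp3, the neighbouring stromelysin, added after its value was seen, was at 32.2 and 9.50 FPKM. Adamts5, an aggrecanase, was at 16.1 and 2.16 FPKM. The 3 members on the other side were the inhibitors Serpinf1, at 1.11 and 8.30 FPKM, and Serpinb2, at 2.70 and 9.04 FPKM, and the heparan sulfatase Sulf1. The gelatinase Mmp2 fell just short of them, at 3.97 and 8.69 FPKM.

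With baicalin the list leaned the other way, with 30 of 45 compared genes higher under the luminal label and a median of 0.39. Mmp13 was then at 9.11 and 3.93 FPKM, Mmp10 at 2.61 and 5.91 FPKM and Mmp3 at 6.02 and 43.5 FPKM in the libraries labelled basal and luminal. The order of the labels was turned for Mmp10 and Mmp3 and the same for Mmp13.

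The promoters of Mmp13 and Mmp10 are shown because the 4 metalloproteinases named above that lie on chromosome 9 and were lower under the luminal label, Mmp3, Mmp10, Mmp12 and Mmp13, all hold the AP-1 letters TGANTCA in this window. Capitals mark the match, which starts 35 bases upstream of the start site in Mmp13 and 63 bases upstream in Mmp10.

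Mmp13, chr9:7272264-7272563, plus strand of GRCm38.p6: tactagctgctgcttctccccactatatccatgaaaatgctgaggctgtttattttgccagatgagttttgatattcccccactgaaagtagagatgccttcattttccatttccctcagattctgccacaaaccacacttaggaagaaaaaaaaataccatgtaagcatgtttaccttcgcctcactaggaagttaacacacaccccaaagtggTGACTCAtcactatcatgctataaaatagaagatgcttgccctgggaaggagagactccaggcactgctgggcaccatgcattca
Mmp10, chr9:7502092-7502391, plus strand of GRCm38.p6: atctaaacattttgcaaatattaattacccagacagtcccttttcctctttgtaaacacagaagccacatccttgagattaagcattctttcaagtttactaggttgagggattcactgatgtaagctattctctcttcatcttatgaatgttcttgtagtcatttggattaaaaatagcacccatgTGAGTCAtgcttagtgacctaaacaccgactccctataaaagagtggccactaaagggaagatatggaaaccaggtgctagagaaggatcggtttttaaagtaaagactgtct

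With both strands searched, TGANTCA was in the windows of 10 of 36 protease and inhibitor genes and in 8.97% of the 27025 genes with a window. Serpinb2, which was higher under the luminal label, was among the 10.

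Metabolic genes differed less as groups. All 36 compared genes of respiratory chain complex I stayed within 1 of equality, and 33 of them were higher in the library labelled luminal, with a median log2 difference of 0.32 against 0.0084 over all genes. Ndufb10, an accessory subunit, was at 38.4 and 70.6 FPKM. The 28 genes of the tricarboxylic acid cycle had a median of 0.08, with malate dehydrogenase, Mdh1, at 61.02 and 104 FPKM, and this median turned negative when FPKM were scaled to a common sum. The share of FPKM from the mitochondrial genome moved the same way as the complex I genes, and its part in their difference was not tested.

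Glycolysis genes were split 20 to 18, with 3 higher and 2 lower by more than 1. These are 7.89% and 5.26% of the list, against 4.60% and 3.60% of all genes. Pgm5, a phosphoglucomutase relative of muscle adherens junctions (ENSMUSG00000041731, chromosome 19, 24683016 to 24861855 on GRCm38), was at 0.419 and 26.8 FPKM in the libraries labelled basal and luminal. Fbp1, the gluconeogenic fructose bisphosphatase, was at 1.10 and 16.2 FPKM and Ldhb, the heart-type lactate dehydrogenase subunit, at 16.3 and 48.3 FPKM. These 3 were higher under the luminal label. The inducible hexokinase Hk2 was lower there at 10.01 and 4.22 FPKM, and so was the pyruvate dehydrogenase kinase Pdk4. With baicalin Pgm5 was at 0.341 and 0.711 FPKM, so that the gap seen with DMSO was absent at that size.

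Of 65 glutathione, aldehyde and drug metabolism genes, 18 were higher by more than 1, which is 27.7% against 4.60% of all genes. Lower by more than 1 were 4, which is 6.15% against 3.60% of all genes. Cbr3, a carbonyl reductase, was at 2.57 and 22.7 FPKM, Gpx2, an epithelial glutathione peroxidase, at 9.41 and 65.9 FPKM and Gstm2, a glutathione transferase, at 3.18 and 24.6 FPKM. The 4 members lower by more than 1 under the luminal label were aldehyde dehydrogenases and a cytochrome. Another aldehyde dehydrogenase, Aldh1l2, was higher there, at 1.44 and 10.8 FPKM. Aldh1a3, which makes retinoic acid and marks luminal progenitors, was at 173 FPKM under the basal label and 46.4 FPKM under the luminal label. Aldh3a1 was at 65.7 and 24.2 FPKM, Aldh3a2 at 25.1 and 9.92 FPKM and Cyp1b1, which hydroxylates oestrogens, at 156 and 68.4 FPKM. Aldh1a3 had the opposite order with baicalin, at 97.8 and 163 FPKM.

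Lipid genes had 8 of 52 members higher and 3 lower by more than 1, 15.4% and 5.77% against 4.60% and 3.60% of all genes. Fabp4, the fatty acid binding protein of adipocytes and some endothelium, was at 0.0898 and 9.81 FPKM, and the fatty acid desaturase Fads1 was at 44.1 and 90.9 FPKM. Cd36, Acss2, Lpl, Dgat2, Mgll and Btn1a1 were the others on the higher side. The 6 adipocyte markers, of which Fabp4 is 1, were all higher under the luminal label. Adipoq was at 0.0729 and 4.15 FPKM. Plin1, Cidec and Lep were listed at 0 under the basal label, reached at most 1.59 FPKM and were not compared. Cidec and Lep had only 9 and 1 fragments under the luminal label. The summed FPKM of the 6 was 0.195 and 16.2, of which Fabp4 gave 0.0898 and 9.81. The part of these markers in the lipid gene differences was not tested. Acadl, a mitochondrial acyl-CoA dehydrogenase, was lower under the luminal label at 185 and 91.99 FPKM, with Fads3 and Cidea beside it. Of 24 cholesterol synthesis genes, 1 was higher and 1 lower by more than 1, 4.17% each against 4.60% and 3.60% of all genes. The lower was Dhcr7, the last reductase of the pathway, at 23.9 and 8.997 FPKM.

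Amino acid and transporter genes held 4 higher and 5 lower by more than 1 among 48, 8.33% and 10.4% against 4.60% and 3.60% of all genes. The glutamate transporter Slc1a3 was at 0.218 and 7.24 FPKM, and Cdo1 and Csad, the enzymes that turn cysteine into hypotaurine, were at 1.61 and 12.7 FPKM and at 8.47 and 22.6 FPKM. All 3 were higher under the luminal label, as was the arginine transporter Slc7a2. The serine synthesis enzyme Phgdh, the polyamine enzyme Amd1 and the glutamine transporter Slc38a1 were lower there, by log2 differences of -1.05, -1.07 and -1.78, and Ckb and the amino acid transporter Slc6a14 were the other members past the threshold.

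Secreted factors gave some of the widest gaps between the libraries. Of 109 compared growth factors, morphogens and their binding proteins, 21 were higher and 20 lower by more than 1. These are 19.3% and 18.3% of the list, against 4.60% and 3.60% of all genes. Sostdc1, a secreted antagonist of BMP and Wnt (ENSMUSG00000036169, chromosome 12, 36314139 to 36318452 on GRCm38), was at 2.15 FPKM under the basal label and 108 FPKM under the luminal label. Igfbp3, which binds insulin-like growth factors, was at 7.43 and 219 FPKM, Bmp7, a bone morphogenetic protein, at 0.326 and 21.2 FPKM and Ptn, the heparin-binding factor pleiotrophin, at 3.61 and 73.3 FPKM. All 4 were also higher under the luminal label with baicalin, with log2 differences between 3.72 and 6.29.

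Other ligands were higher under the basal label. Wnt7b, a Wnt ligand of luminal epithelium, was at 43.8 FPKM under the basal label and 4.39 FPKM under the luminal label. Inhba, the activin A subunit, was at 63.1 and 7.29 FPKM, and the neurotrophic factor Gdnf was at 14.9 and 1.63 FPKM. Each was more than 5-fold lower under the luminal label, and in the baicalin pair the log2 differences ran from -2.60 to -0.32.

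Cytokines, chemokines, complement and antimicrobial genes were mostly lower under the luminal label, with a median log2 difference of -0.52. By more than 1, 28 of 72 were lower and 5 higher, 38.9% and 6.94% against 3.60% and 4.60% of all genes. Ccl2, the monocyte chemokine (ENSMUSG00000035385, chromosome 11, 82035571 to 82037453 on GRCm38), was at 33.6 FPKM under the basal label and 1.18 FPKM under the luminal label, and Il1a, an interleukin stored in epithelium, at 39.3 and 1.81 FPKM. Lif, leukaemia inhibitory factor, was at 55.3 and 4.54 FPKM and Csf3, the granulocyte growth factor, at 34.04 and 2.56 FPKM. The exceptions were led by the nuclear alarmin Il33 (ENSMUSG00000024810, chromosome 19, 29925114 to 29960718 on GRCm38), which was at 0.471 FPKM under the basal label and 35.2 FPKM under the luminal label, and the chemokine Cxcl14, which was at 2.04 and 22.96 FPKM, and also held Cxcl12, Cxcl17 and Tnfsf10. With baicalin the gap was absent for Ccl2, at 4.03 and 4.04 FPKM, while Lif and Csf3 remained lower under the luminal label at log2 differences of -2.07 and -1.95. Over the 72 genes, the median was -0.52 with DMSO and, over the 67 compared with baicalin, 0.10.

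Defining markers of immune cells stayed low beside these cytokines. Ptprc, which encodes CD45, was at 0.0138 and 0.0028 FPKM, and none of the 8 compared of 12 immune markers differed by more than 1 with the pseudocount of 1 FPKM. Cd68, a lysosomal protein of macrophages and other cells, was the highest at 7.49 and 4.44 FPKM and made up most of the sums of 9.34 and 5.70 FPKM. Adgre1, a macrophage marker, was at 0.0156 and 0.0319 FPKM. Csf1r, a growth factor receptor of macrophages, had 39 and 4 fragments under the basal and luminal labels, a ratio of 10.7 (3.43 to 36.6) and a log2 difference of -1.74 with a pseudocount of 0.1 FPKM, and 15.1% of its exon bases lie opposite Hmgxb3. Lyz2, a lysozyme of macrophages nearly identical to a copy elsewhere in the genome, was at 8.84 and 0.903 FPKM, and the scavenger receptor Marco, chosen after its value was seen, had 78 and 0 fragments. Their part in the cytokine differences was not tested. The 8 endothelial markers reached at most 0.805 FPKM in a DMSO library, with sums of 1.66 and 2.98 FPKM.

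Milk and secretory genes had 13 of 34 members lower and 5 higher by more than 1. The shares were 38.2% and 14.7%, against 3.60% and 4.60% of all genes. Clu, the chaperone clusterin, was at 235 FPKM under the basal label and 31.8 FPKM under the luminal label, and Wfdc2, a whey acidic protein relative, at 403 and 65.2 FPKM. Areg, the amphiregulin that carries oestrogen signals, was at 63.2 and 21.4 FPKM. The members higher under the luminal label were led by Cited1, a transcriptional cofactor, at 0.0574 and 7.36 FPKM, where 2 fragments lay behind the lower value and the ratio of 128 had a counting interval of 35.1 to 1065. The glycerol channel Aqp3 was at 2.51 and 16.4 FPKM and the protease inhibitor Slpi, the most abundant of the list, at 416 and 1137 FPKM, with Muc15 and Csn1s1 beside them. The caseins Csn2, Csn1s2a and Csn1s2b and the whey protein Wap were each at 0 in at least 1 DMSO library and were not compared.

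Receptors leaned higher under the luminal label, with 13 of 78 higher and 5 lower by more than 1. Those shares are 16.7% and 6.41%, against 4.60% and 3.60% of all genes. Oxtr, the oxytocin receptor of myoepithelium, was at 1.09 and 19.4 FPKM, Lifr, the receptor chain for Lif, at 4.20 and 31.1 FPKM and Fgfr2 at 1.70 and 15.1 FPKM. The ligand Lif and its receptor chain Lifr therefore differed in opposite directions, and both genes had fragments in both libraries. Tnfrsf11b, the RANK ligand decoy osteoprotegerin, was at 46.3 FPKM under the basal label and 2.05 FPKM under the luminal label, and Nrp2 and the prolactin receptor Prlr were at 19.3 and 3.66 FPKM and at 6.50 and 2.40 FPKM. Ngfr and Igf2r were the others on that side.

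Interferon response genes were lower under the luminal label without exception. All 35 members were compared, 35 were lower and 26 were lower by more than 1, which is 74.3% against 3.60% of all genes, and the median log2 difference was -1.70. Rsad2, the antiviral enzyme viperin (ENSMUSG00000020641, chromosome 12, 26442746 to 26456452 on GRCm38), was at 19.3 FPKM under the basal label and 1.14 FPKM under the luminal label. Ifit1, which binds viral RNA, was at 19.3 and 1.30 FPKM, Oasl2 at 23.2 and 1.65 FPKM and Usp18, which removes ISG15 from proteins, at 13.1 and 0.648 FPKM. The same 4 genes were at most 3.43 FPKM in both baicalin libraries, and over the 35 genes the baicalin pair had 10 higher and 25 lower, with a median of -0.24.

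The promoters of Rsad2 and Ifit1 are shown because both genes were among the lowest of the list and hold the core of the interferon-stimulated response element, GAAANNGAAA, here on the strand opposite to the one printed. Capitals mark the matches, at 120 bases upstream of the start site in Rsad2 and at 104 and 85 bases upstream in Ifit1.

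Rsad2, chr12:26456403-26456702, minus strand of GRCm38.p6: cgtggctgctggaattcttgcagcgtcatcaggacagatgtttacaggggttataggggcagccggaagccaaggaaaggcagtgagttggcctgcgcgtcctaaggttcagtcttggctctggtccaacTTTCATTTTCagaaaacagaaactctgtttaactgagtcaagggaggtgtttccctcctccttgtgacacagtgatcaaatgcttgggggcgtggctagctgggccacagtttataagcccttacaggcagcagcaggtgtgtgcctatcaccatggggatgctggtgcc
Ifit1, chr19:34640639-34640938, plus strand of GRCm38.p6: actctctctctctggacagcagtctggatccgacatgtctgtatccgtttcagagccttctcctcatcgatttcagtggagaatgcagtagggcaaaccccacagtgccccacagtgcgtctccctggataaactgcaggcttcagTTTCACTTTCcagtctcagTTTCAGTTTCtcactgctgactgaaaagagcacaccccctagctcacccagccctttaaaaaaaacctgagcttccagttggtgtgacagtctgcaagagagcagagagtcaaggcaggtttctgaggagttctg

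These letters were in the windows of 14 of the 27 interferon response genes that have a window and in 3.99% of the 27025 genes, with both strands searched.

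**Figure D4:**
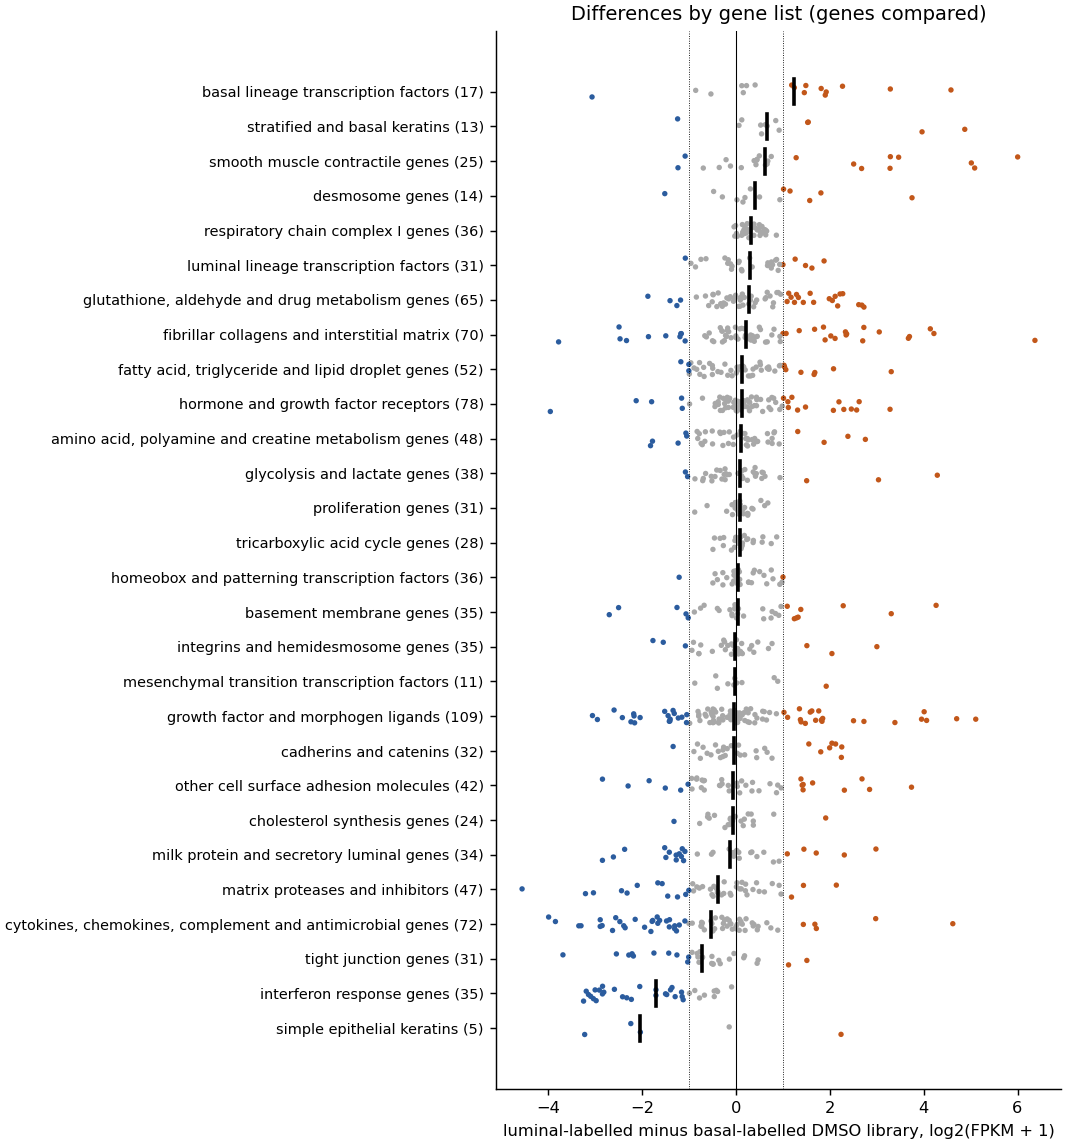
Log2 differences between the DMSO libraries for the compared members of 28 gene lists, with 1 point per gene, a black bar at each list's median and the number of genes in parentheses. Dotted lines mark a difference of 1 in each direction. Basal lineage factors have the highest median, 1.25, and the interferon response genes and simple epithelial keratins have medians of -1.70 and -2.04.

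The baicalin pair gave a further view of the same labels in other libraries, although baicalin was present and whether these cultures came from the same sort is not given in the sources used here. Of the 883 genes higher by more than 1 with DMSO, 837 were compared with baicalin, 770 were higher there and 438 were higher by more than 1. Of the 691 lower genes, 686 were compared, 584 were lower and 251 were lower by more than 1. Over all 19195 genes compared in the baicalin pair, 44.68% were higher. Past the threshold, 937 of the 19195 were higher and 540 lower. In the opposite direction by more than 1 were 24 of the lower genes and 5 of the higher ones, Btn1a1, Grk3, Tmem254c, Mir3091 and Gm4149, which are named here after their values were seen. Trp63, Snai2, Krt5 and Col17a1 had wider gaps with baicalin, with log2 differences of 4.42, 4.21, 9.24 and 6.82. Id4 and Tagln had narrower ones, with 1.89 and 4.35. Irx4 and Cnn1 had smaller log2 differences with baicalin, 3.58 and 2.12, but 1 fragment each lay behind their values under the basal label. At 0.0189 and 0.0180 FPKM the pseudocount sets these differences, so they do not show whether the FPKM ratios narrowed. The median of the basal lineage factors was 1.25 with DMSO and 0.96 with baicalin. Foxa1, Frem2 and Pgm5 had no gap of comparable size with baicalin, at -0.17, 0.011 and 0.35.

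**Figure D5:**
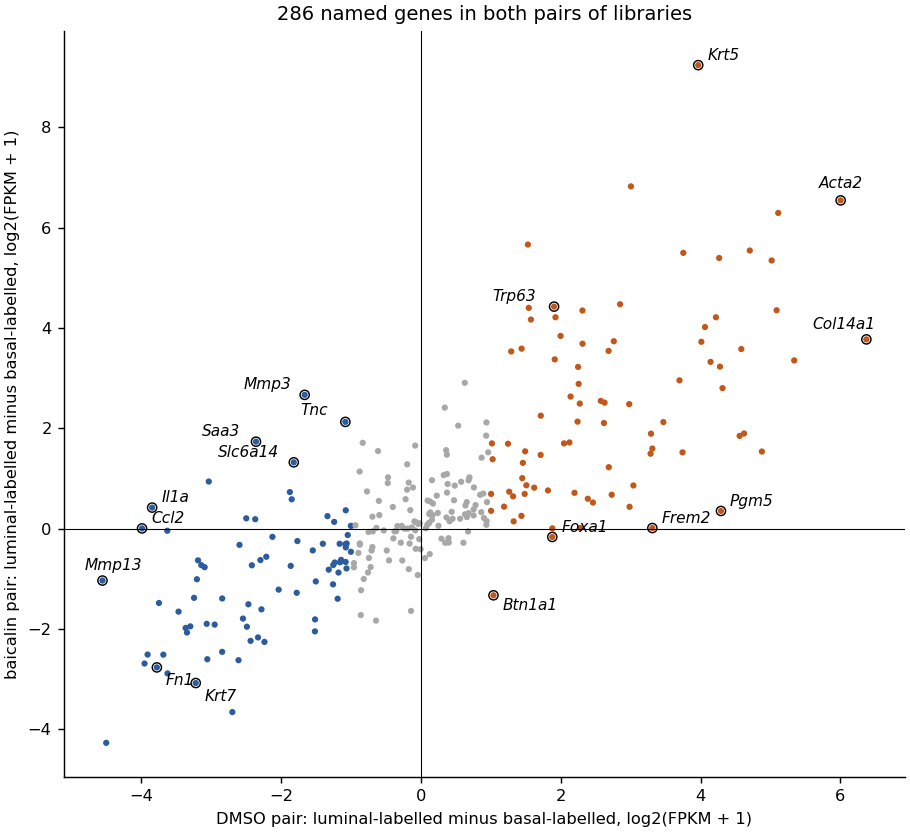
Log2 differences of 286 named genes with DMSO on the x axis and with baicalin on the y axis, each as the luminal-labelled minus the basal-labelled library. Orange and blue points differed by more than 1 with DMSO, and labelled genes are ringed. Krt5, Acta2 and Trp63 lie high on the right, Krt7 and Fn1 low on the left, and Mmp3, Tnc, Saa3, Slc6a14 and Btn1a1 lie in the quadrants where the direction turned.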

How the data were processed

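Per the methods, mRNA was captured on oligo (dT) beads, sequenced with a strand-marking kit, aligned with HISAT2 to GRCm38 (Ensembl release 94) and counted with featureCounts, and the authors deposited FPKM. The submitters' processing notes also list Bowtie 0.12.2 and mm8. Whether counting used strand is not given in the sources used here, so antisense and overlapping genes are uncertain. FPKM times GENCODE M21 exon length fell on steps of 1 fragment, within 0.1, for 98.45% to 99.06% of low genes, which gave 19356088 to 20648797 fragments per library, exact Clopper-Pearson intervals on ratios and a floor of 3 fragments.

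The pseudocount was 1 FPKM and the threshold a log2 difference of 1. No test was possible with 1 library per condition. The comparison, the 35 gene lists (1249 of 1252 entries found by symbol) and their members were chosen with earlier results of these data known. Named genes were, per list, up to 4 members furthest in each direction among those of at least 5 FPKM in a DMSO library, all cell markers and lineage factors, and the 15 largest differences in each direction among protein-coding genes of at least 10 FPKM. Others were named after their values were seen or to complete a count. Of 299 named genes, 28 share at least 200 bases at 95% identity or more with a gene elsewhere (BLAST 2.17.0). Promoter windows are from RefSeq on GRCm38.p6, matched by symbol. The computation was tested on simulated data, and alternative pseudocounts, filters, scalings and thresholds were tried. Tools were Python 3.11.15 with pandas 2.3.3, numpy 2.4.6, matplotlib 3.10.9 and scipy 1.17.1.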

Additional observations from a re-analysis of the deposited data

Results flagged for a closer look

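For 5 named genes the difference between the labels had opposite directions in the DMSO and baicalin pairs, by more than 1 in each. With 1 library per condition this was not tested. Mmp3, a stromelysin, was at 32.2 and 9.50 FPKM with DMSO and at 6.02 and 43.5 FPKM with baicalin in the libraries labelled basal and luminal, log2 differences of -1.66 and 2.66. Tnc, tenascin C, had log2 differences of -1.08 with DMSO and 2.13 with baicalin, where it was at 29.6 and 133 FPKM. Saa3, an acute-phase protein, had -2.36 and 1.73, and Slc6a14, an amino acid transporter, had -1.82 and 1.32. These 4 were lower under the luminal label with DMSO and higher under it with baicalin. Btn1a1, the butyrophilin of milk fat globules, turned the other way, with 1.04 and -1.33, from 4.33 and 9.93 FPKM to 11.4 and 3.93 FPKM.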

How the results depend on the processing

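The counts of genes past the threshold depended on the pseudocount, the scaling and the threshold. With a pseudocount of 0.1 FPKM, 2208 genes were higher and 1534 lower in the library labelled luminal by more than 1, and with none 3392 and 2099. Scaled to TPM, a common sum that shrinks the pseudocount and moves each plain log2 ratio by -0.11, 1391 were higher and 1309 lower. With a threshold of 2, 202 were higher and 150 lower. Genes above 0 in all 4 libraries, all genes, genes of at least 1 FPKM in a DMSO library, centring on the median gene and protein-coding genes gave 737 to 965 higher and 633 to 725 lower. The number of lists with a median above 0 was 20 and ran from 17 to 21. Medians near 0 changed sign under at least 1 alternative for the cadherin, mesenchymal transition factor, glycolysis, tricarboxylic acid cycle, proliferation, surface adhesion, milk, ligand and fibroblast lists. Of 290 named genes compared, Bcl11a and Grhl2 changed sign, with TPM scaling. No paired analysis was possible because each condition has 1 library. Depth limits genes of few fragments, since 1 fragment on 1 kb of exons was worth 0.0504 and 0.0517 FPKM in the DMSO libraries labelled basal and luminal.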

Other observations

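Among the 15 genes furthest in each direction, several belong to groups not described above. Apoe, the apolipoprotein E of lipid transport, was at 8.88 FPKM in the library labelled basal and 399 FPKM in the library labelled luminal with DMSO, and at 6.53 and 75.8 FPKM with baicalin. Its neighbour Apoc1 was at 0.542 and 29.7 FPKM with DMSO. Emid1, a secreted EMI domain protein, was at 0.924 and 44.3 FPKM, and Clec11a, a secreted lectin, at 0.338 and 24.9 FPKM. All 4 were higher under the luminal label in both pairs. On the other side, Ankrd1, an ankyrin repeat protein known as a target of YAP, was at 49.5 FPKM under the basal label and 1.23 FPKM under the luminal label with DMSO, and at 84.97 and 3.46 FPKM with baicalin. Foxj1, the forkhead factor of motile cilia, was at 33.7 and 1.81 FPKM, and Ptgs2, the inducible cyclooxygenase, at 89.03 and 7.14 FPKM. Dynap, a dynactin-associated membrane protein, was the most abundant of those besides Fn1, at 217 and 13.5 FPKM. Acod1, which makes itaconate, was at 12.8 and 0.118 FPKM with DMSO and below 1 FPKM in both baicalin libraries.

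Proliferation genes did not separate the DMSO libraries. None of 31 differed by more than 1, 22 were higher and 9 lower under the luminal label, and the median log2 difference of 0.08 turned negative when FPKM were scaled to a common sum. Mki67, the proliferation antigen, was at 53.97 and 68.6 FPKM, while the mitotic kinases Aurka and Plk1 had log2 differences of -0.88 and -0.61. With baicalin all 31 were higher under the luminal label, with a median of 1.30.

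Some genes were listed at 0 in 1 DMSO library and could not enter the comparison. Above 0 FPKM only in the library labelled luminal were 2879 genes, and only in the library labelled basal 1758. Of the protein-coding genes at 0 in 1 library, 19 reached 1 FPKM under the luminal label and 2 under the basal label, Marco and Apol7a. The following were chosen after their values were seen. Reln, the matrix glycoprotein reelin, had 1138 fragments under the luminal label and 0 under the basal label, at least 389-fold higher against a floor of 3 fragments in the library. Sv2c, a vesicle glycoprotein, had 661 and 0 fragments, and Fgb, the fibrinogen β chain, 355 and 0.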
